A study of Arabidopsis thaliana with 9 samples.

Results

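A set of 93 nuclear genes had low transcript levels in Arabidopsis csld5 mutants and high levels again where CSLD5 was returned to the mutant under the ATML1 promoter. They were chosen by their own values. A gene was taken if its mean level in col-0 was at least 1 CPM (the read count scaled so that every library has the same total), if the log2 ratio of csld5 to col-0 was -1.5 or lower, and if the log2 ratio of complemented plants to csld5 was 1.5 or higher, with 0.1 CPM added to each mean. Genes of the chloroplast and mitochondrial genomes and 1 further gene were outside the rule. Of 25636 nuclear genes listed, 19701 reached 1 CPM in col-0, and 0.472% of these, the 93 genes, met both ratios. The fall alone was met by 161 genes and the rise alone by 155. Because these values chose the genes, the fall in csld5 and the rise in complemented plants are given below as descriptions and not as findings.

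RNA was sequenced from dissected inflorescence meristems, in 9 libraries. There were 3 libraries of col-0 wild type, 3 of csld5 mutants and 3 of csld5 carrying pATML1::GFP+CSLD5, named complemented here. The labels name no mutant allele and no treatment. ATML1 is expressed in the outermost cell layer, so its promoter drives CSLD5 mainly there. Nothing says how many transgenic lines stand behind the complemented libraries, or whether replicates are separate plants, so p-values cover only the spread among libraries.

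CSLD5 belongs to the cellulose synthase-like D family, whose members make wall polysaccharide at new cell plates and at tip-growing cell surfaces. In meristems it acts in dividing cells, and cells lacking it often divide with incomplete cross walls. Plant cells sense disturbed walls through surface receptors, some of which bind secreted RALF peptides, and answer with calcium signals and fast transcription of wound and defence genes.

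Totals ran from 35543318 to 45679471 reads per library. Of the meristem markers, STM, WUS, CLV1, KNAT1, LFY, AP1 and ATML1 had reads in every genotype. CLV3 had 6, 0 and 4 reads over the 3 libraries of col-0, csld5 and complemented plants, and UFO had 46, 32 and 47. Markers of leaf, pollen, anther and vascular tissue were also counted and are given below, so presence alone does not establish the tissue label. In the edgeR quasi-likelihood test on all 9 libraries (Benjamini-Hochberg adjusted p below 0.05, 22671 genes tested), 20.4% of genes were lower and 21.1% higher in csld5 than in col-0, and 19.8% were higher and 21.1% lower in complemented plants than in csld5. Between complemented plants and col-0, 0.948% were higher and 0.578% lower. Comparisons with csld5 share its libraries, and comparisons with col-0 share those of col-0. All 93 genes were tested, and all were called lower in csld5 and higher in complemented plants, which the rule nearly fixed. In bulk tissue, fewer cells of a type and less RNA per cell cannot be told apart.

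CSLD5 itself (AT1G02730, chr1:594502-598657, - strand of TAIR10.1) met the rule. It had 133, 139 and 127 CPM in col-0, 25.5, 27.2 and 25.8 in csld5 and 883, 959 and 1033 in complemented libraries. The groups did not overlap, with complemented libraries the highest and csld5 the lowest. Its mean in complemented plants was 721% of the col-0 mean, and the log2 fold change there was 2.84 ± 0.07 (SE, n = 3 against 3). Reads of the transgene were not told apart from those of the resident gene. In csld5, 19.7% of the col-0 level was still counted.

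The other 92 genes were mostly weakly expressed and short. In col-0, 26 of the 93 reached 10 CPM and 56 were under 5 CPM. The csld5 mean was between 4.88% and 34.7% of the col-0 mean, with a median of 25.5%. No gene was without reads in csld5, but 12 had fewer than 30 reads over the 3 csld5 libraries. Every csld5 library lay below all 6 others for each of the 93 genes, as it did for 29.4% of the 19701 genes, and this too was nearly fixed by the rule. In complemented plants 69 genes stood between 75% and 133% of their col-0 mean, 12 stood below and 12 above, and the median was 100.5%. Complemented and col-0 libraries overlapped for 82 of the 93. All 3 complemented libraries lay above all of col-0 for 6 members (6.45%, against 10.2% of the 19701 genes). They lay below for 5 (5.38%, against 9.1%). No share over all genes was set beside the 69, 12 and 12.

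**Figure D1:**
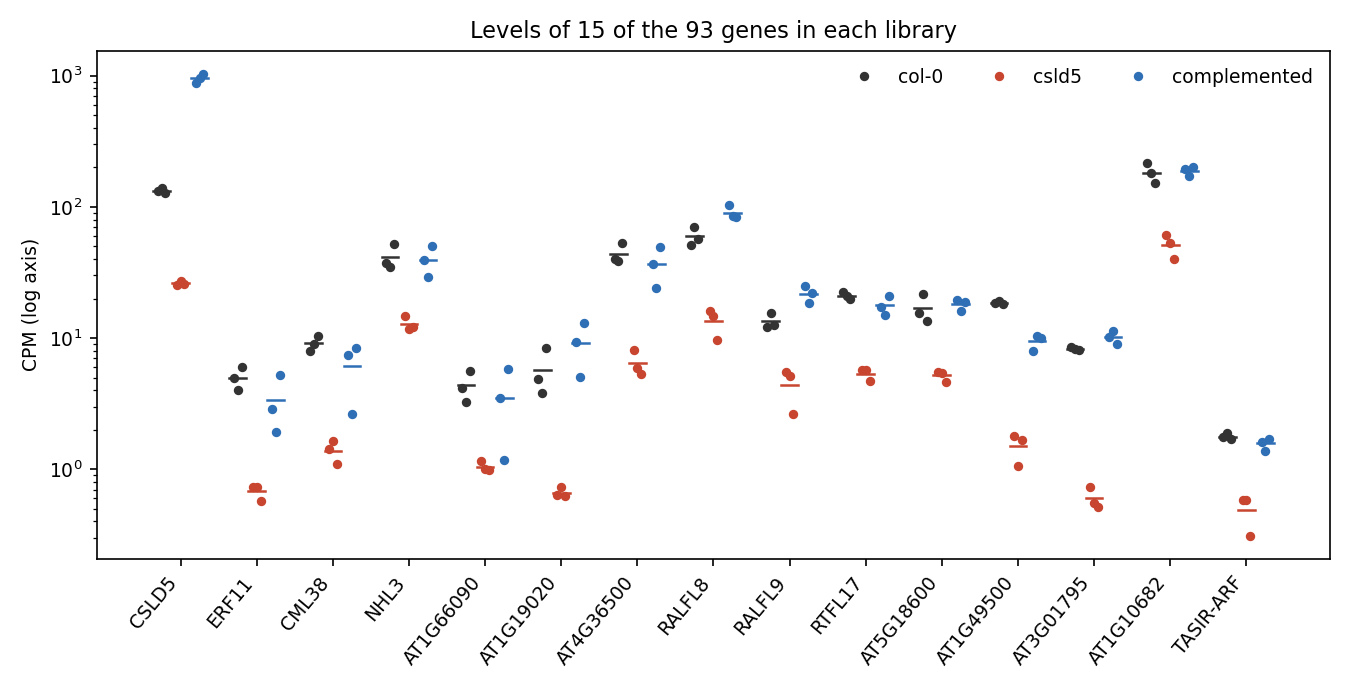
Levels of 15 of the 93 genes in each library, in CPM on a log axis, with points for libraries and short lines for the means of 3. The csld5 points sit below both other genotypes for each gene shown, and the complemented points overlap those of col-0 for most genes but not for CSLD5, RALFL8, RALFL9, AT1G49500 and AT3G01795.

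The genes nearest the thresholds show how narrow the margin was. Just inside the lower threshold were AT3G03325 at a log2 ratio of -1.502, the small nucleolar RNA U60.1F at -1.52 and AT1G33600 at -1.52; just outside were AT1G33610 at -1.4999, AT1G74453 at -1.49 and AT1G51820 at -1.49. AT1G33600 and AT1G33610 are leucine-rich repeat genes with neighbouring identifiers, and they fell on opposite sides of the line. At the upper threshold EXPA16, AT4G02905 and TASIR-ARF were inside at 1.5, and AT2G15960, AT5G44580 and AT3G47295 were outside at 1.47, 1.46 and 1.46.

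By annotated product the 93 comprised CSLD5, 9 genes of stress and defence, 6 small secreted or signalling peptides, 3 glutaredoxins, 5 wall and cell surface genes, 13 enzymes, carriers and regulators, 2 nuclear copies of mitochondrial genes, 25 proteins without a clear function, and 29 non-coding RNAs. These groups were drawn up with the members known and serve only to order the description.

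Among the 9 stress and defence genes, ERF11, an ERF-family transcription factor with a repressor motif that acts in ethylene and stress responses, had 4.92, 3.99 and 6.05 CPM in col-0, 0.738, 0.735 and 0.571 in csld5 and 2.88, 1.92 and 5.23 in complemented libraries. The csld5 libraries were low and even, while complemented replicate 3 reached the col-0 range and replicate 2 did not. CML38, a calmodulin-like calcium sensor induced by wounding and low oxygen, had 8.02, 9.09 and 10.3 CPM in col-0, 1.42, 1.63 and 1.09 in csld5 and 7.49, 2.61 and 8.38 in complemented libraries. Again complemented replicate 2 was lowest, although still above every csld5 library. NHL3, a membrane protein of the NDR1/HIN1-like family linked to bacterial defence, had 37.5, 34.7 and 52.1 CPM in col-0, 14.8, 11.7 and 12.1 in csld5 and 39.2, 29.2 and 50.4 in complemented libraries, with complemented and col-0 libraries overlapping. AT1G66090, a TIR-NBS protein of the disease resistance class, had 4.15, 3.28 and 5.66 CPM in col-0, 1.16, 0.998 and 0.987 in csld5 and 3.5, 1.17 and 5.85 in complemented libraries. Its complemented libraries spread from just above csld5 to above col-0.

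PP2-A5, a phloem protein of the lectin-like PP2 family, stood at 4.37 ± 0.775 CPM in col-0, 0.68 ± 0.133 in csld5 and 5.25 ± 2.71 in complemented plants (SD, n = 3). THI2.2, a thionin (a small antimicrobial protein), had 57.4, 49.7 and 45.1 CPM in col-0, 12.4, 9.03 and 11 in csld5 and 25.9, 26.8 and 41.2 in complemented libraries. The groups did not overlap, and THI2.2 was the stress gene furthest from its col-0 level after complementation, at 61.7%. AT1G33600, a leucine-rich repeat protein, had 54.5 ± 13.6 CPM in col-0, 18.9 ± 1.24 in csld5 and 55.8 ± 12.4 in complemented plants. The VQ-motif gene AT1G17147 and the calmodulin-binding gene AT5G57010 were lower in level, with col-0 means of 2.29 and 2.34 CPM and csld5 means at 25.6% and 29.5% of these. VQ proteins are partners of WRKY transcription factors.

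The stress and defence genes ranked the complemented libraries much alike, but those of csld5 less so. Their summed level was 165.8, 156.3 and 200.6 CPM in col-0, 51.6, 45.9 and 45.6 in csld5 and 139.7, 114.3 and 195.5 in complemented libraries. Complemented replicate 3 was the highest complemented library for 9 of 9, and complemented replicate 2 the lowest for 8 of 9. Col-0 replicate 3 was the highest col-0 library for 8 of the 9, and replicate 2 the lowest for 5. In csld5, replicate 1 was highest for 6 of the 9 and replicate 3 lowest for 5. The uncharacterised proteins had the same complemented libraries at the ends more often than not, replicate 2 lowest for 16 of 25 and replicate 3 highest for 15 of 25. For the small peptides complemented replicate 2 was lowest for 4 of 6 and replicate 3 highest for 3 of 6. The 29 non-coding RNAs were spread evenly, highest in complemented replicates 1, 2 and 3 for 11, 9 and 9 and lowest for 9, 10 and 10. The ranking over all genes was not set beside these counts, and what set the libraries apart was not tested.

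**Figure D2:**
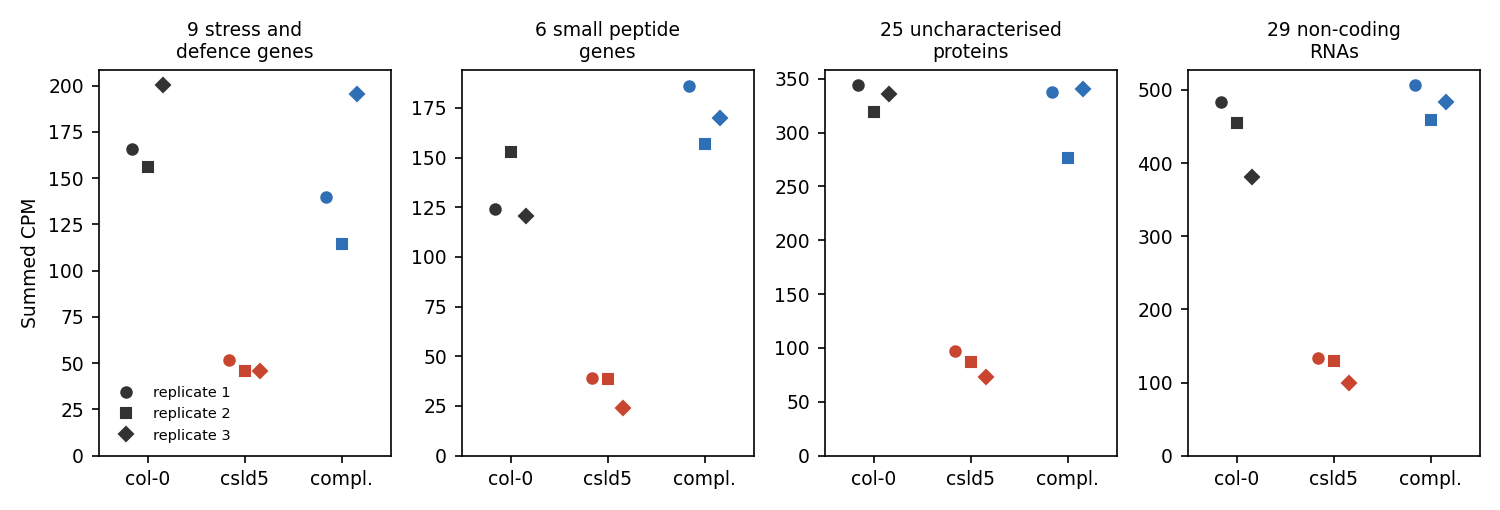
Summed level in CPM of 4 groups of the 93 genes in each library, with the replicate number shown by the marker shape and axes starting at 0. Complemented replicate 2 (114.3 CPM) and replicate 3 (195.5 CPM) differ most for the 9 stress and defence genes, and csld5 lies below the other genotypes in each panel.

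Upstream sequence is shown for 4 of these stress genes and for AT5G36925, a short protein of no assigned function, because their 250 bases before the annotated start hold the letters TTGACC or TTGACT, the core bound by WRKY factors, and they let a reader see how the matches lie. The windows, on TAIR10.1 and read 5′ to 3′ on the gene's strand, are chr1:9956981-9957230 (-) for ERF11, chr1:28768139-28768388 (-) for CML38, chr5:1931783-1932032 (-) for NHL3, chr1:24601783-24602032 (+) for AT1G66090 and chr5:14566440-14566689 (-) for AT5G36925. Capitals mark TTGACC or TTGACT on either strand. They also mark CGCGTT, an element bound by calmodulin-binding transcription activators, and the letters ACGCGT that can overlap it.
ERF11: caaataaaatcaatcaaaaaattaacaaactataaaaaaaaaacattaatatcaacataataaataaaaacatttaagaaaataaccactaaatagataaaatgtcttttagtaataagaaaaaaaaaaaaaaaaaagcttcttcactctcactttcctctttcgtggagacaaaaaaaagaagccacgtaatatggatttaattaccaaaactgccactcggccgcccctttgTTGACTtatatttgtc
CML38: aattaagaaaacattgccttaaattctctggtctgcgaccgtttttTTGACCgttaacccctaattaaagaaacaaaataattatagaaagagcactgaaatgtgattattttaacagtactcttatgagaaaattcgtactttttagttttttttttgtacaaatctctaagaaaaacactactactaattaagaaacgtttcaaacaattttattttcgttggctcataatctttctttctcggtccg
NHL3: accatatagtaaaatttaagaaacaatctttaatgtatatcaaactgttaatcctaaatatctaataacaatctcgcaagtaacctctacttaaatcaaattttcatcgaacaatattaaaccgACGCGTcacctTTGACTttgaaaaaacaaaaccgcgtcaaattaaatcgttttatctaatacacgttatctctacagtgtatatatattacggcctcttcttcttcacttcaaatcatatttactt
AT1G66090: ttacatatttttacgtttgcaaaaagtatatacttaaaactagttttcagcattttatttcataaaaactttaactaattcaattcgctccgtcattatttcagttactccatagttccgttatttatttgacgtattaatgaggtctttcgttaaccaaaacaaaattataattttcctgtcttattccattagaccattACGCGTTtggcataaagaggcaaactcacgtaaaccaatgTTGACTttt
AT5G36925: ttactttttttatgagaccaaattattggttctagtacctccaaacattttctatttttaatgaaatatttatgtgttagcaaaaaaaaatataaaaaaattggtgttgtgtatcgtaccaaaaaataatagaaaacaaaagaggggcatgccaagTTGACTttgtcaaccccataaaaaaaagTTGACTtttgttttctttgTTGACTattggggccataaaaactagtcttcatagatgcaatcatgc

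TTGACC or TTGACT occurred on either strand in 7 of the 9 stress and defence windows (77.8%), in 26 of the 64 protein-coding members (40.6%) and in 32 of all 93 (34.4%), against 27.3% of the 19701 genes and 27.5% of all 37897 nuclear genes annotated. AT5G36925 held 3 matches within its window. Among the non-coding RNAs 6 of 29 windows matched (20.7%). CGCGTT was found in 5 of 93 windows (5.38%, against 2.69% of the 19701 genes) and ACGCGT, its own reverse complement, in 5 (5.38%, against 1.69%). GCCGCC, bound by ERF factors, was in 5 (5.38%, against 1.92%), TGACGT, bound by TGA factors, in 11 (11.8%, against 8.07%), and the G-box CACGTG, also its own reverse complement, in 3 (3.23%, against 7.36%). TATAAA was in 43 (46.2%, against 45.7%) and AAACCCTA in 4 (4.3%, against 3.86%). A match describes the letters only, these 9 stress genes were grouped after the members were seen, and no binding was measured.

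The gene lists that hold ERF11, CML38 and NHL3 moved in different ways. Over all genes tested, 20.4% were called lower and 21.1% higher in csld5 than in col-0. From csld5 to complemented plants 19.8% were higher and 21.1% lower. Between complemented plants and col-0, 0.948% were higher and 0.578% lower. Of 25 early wound and stress regulators tested, 18 fell and 2 rose in csld5 (median log2 fold change -0.94, against -0.02 over all genes), but only 4 rose and 6 fell in complemented plants against csld5 (median 0.05), and 10 were lower and 0 higher in complemented plants than in col-0 (median -0.72). ERF11 was the member among them. ERF104, a factor phosphorylated in defence signalling, had log2 fold changes of -1.85 in csld5, -0.96 from csld5 to complemented plants and -2.81 from col-0 to complemented plants, and ERF5, a relative, had -1.65, 0.01 and -1.64. WRKY22 fell by 1.1 and rose by 1.02, and CBF1, a cold-response regulator, fell by 1.70 and rose by 1.85; neither met the rule, and CBF1 had 0.611 CPM in col-0.

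Of 13 touch and calcium genes, 9 fell and 0 rose in csld5 (median -0.59), and 8 rose and 0 fell in complemented plants against csld5 (median 0.57). With the correction for exon GC and length described further on, 9 fell and 1 rose, then 6 rose and 1 fell. CML38 was the member here, and those close to it were TCH2, a calmodulin-like touch gene (-1.54 in csld5, then 1.23), and CML23 (-1.22, then 1.23). CAM2, CAM5 and CAM7, which encode calmodulin, changed less, with -0.59, -0.52 and -0.33 in csld5 and 0.66, 0.57 and 0.34 afterwards. XTH22, a touch-induced wall enzyme, fell by 2.21 in csld5 and did not return: its level in complemented plants was still lower than in col-0, by -1.71. Of 13 genes of pattern-triggered defence, which include NHL3, 4 fell and 3 rose in csld5, and 3 rose and 3 fell afterwards; with that correction 3 fell and 0 rose, then 2 rose and 1 fell. MPK3, a signalling kinase, and PROPEP1, a precursor of a danger peptide, fell by 0.67 and 0.60 and rose by 0.79 and 0.75.

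Other stress and nutrient lists held no member. In csld5 against col-0, 7 of 16 jasmonate genes rose and 1 fell, 2 of 10 salicylic acid genes rose and 2 fell, 2 of 8 heat shock genes rose and 0 fell, 3 of 7 iron genes rose and 0 fell, 4 of 9 phosphate genes rose and 3 fell, and 2 of 10 auxin genes rose and 3 fell. With the GC and length correction the numbers that rose and fell were 10 and 0 for jasmonate, 2 and 1 for salicylic acid, 0 and 1 for heat shock, 3 and 1 for iron, 4 and 1 for phosphate and 1 and 2 for auxin. From csld5 to complemented plants 0 jasmonate genes rose and 3 fell, and 1 salicylic acid gene rose and 6 fell. There 0 heat shock, 1 iron, 1 phosphate and 2 auxin genes rose, and 2, 3, 4 and 1 fell. With the correction these counts were 1 and 6 for jasmonate, 0 and 5 for salicylic acid and 2 and 1 for heat shock. For iron they were 1 and 3, for phosphate 1 and 5 and for auxin 2 and 1. Markers of other tissues in the dissected material held no member either. Of 10 late pollen markers 7 were higher and 0 lower in csld5, and their summed level ran over 284.7 to 466.3 CPM in col-0, over 448.8 to 795.4 CPM in csld5 and over 412.4 to 497.9 CPM with the transgene. Leaf markers were higher for 4 of 8 (17230 to 18470, 18160 to 19340 and 16490 to 17600 CPM in the same order). Vascular markers were higher for 3 of 8 (149.1 to 160.9, 166.8 to 212.4 and 144.0 to 151.3 CPM). Anther and tapetum markers were lower for 2 of 8 (392.1 to 471.1, 333.1 to 474.9 and 474.6 to 576.7 CPM). Of 8 meristem markers tested, 3 were higher and 2 lower in csld5, and 2 and 2 with the correction. With the correction 7 pollen markers were again higher and 0 lower, leaf markers were 2 higher and 2 lower, vascular markers 2 higher and 1 lower, and 0 anther and tapetum markers were called. Of the markers in these lists CLV3 alone had libraries at 0, and the part of other tissues in the 93 genes' values was not tested.

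**Figure D3:**
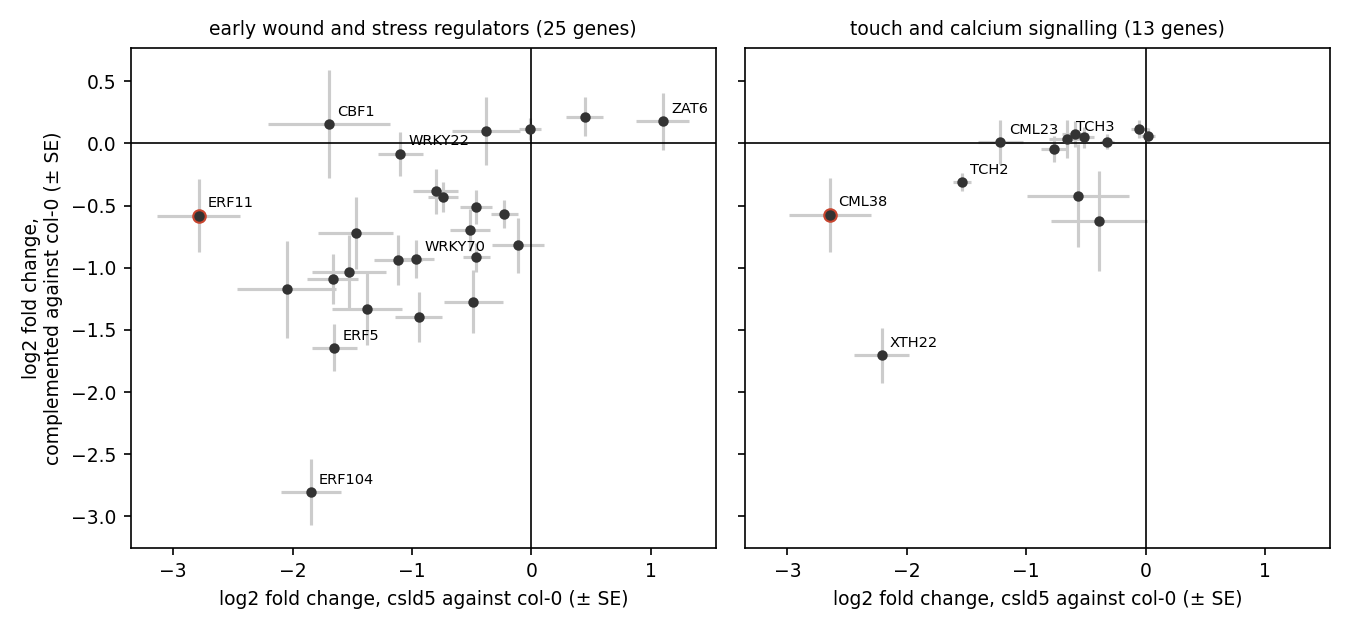
Log2 fold change from col-0 in csld5 (horizontal) and in complemented plants (vertical), with SE, for 25 early wound and stress regulators and 13 touch and calcium genes, both comparisons sharing the col-0 libraries. Most touch genes sit near 0 on the vertical axis, XTH22 (-1.71) does not, and many wound regulators lie below 0, with ERF104 at -2.81. The members ERF11 and CML38 are the larger red points.

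Small peptides included RALFL8 and RALFL9, RALF-like secreted peptides of the family whose members bind FERONIA-type wall receptors. RALFL8 had 51.3, 70.3 and 57 CPM in col-0, 16.2, 14.8 and 9.58 in csld5 and 103, 85 and 84.1 in complemented libraries. RALFL9 had 12.2, 15.6 and 12.6 CPM in col-0, 5.48, 5.09 and 2.62 in csld5 and 24.8, 18.5 and 22.1 in complemented libraries. For both genes every complemented library was above every col-0 library, at 152% and 162% of the col-0 mean, but neither difference was called (log2 fold change 0.59 ± 0.15, adjusted p = 0.068, and 0.68 ± 0.19, adjusted p = 0.11, edgeR). The call was reached for RALFL8 with the replicate block and in a fit of these genotypes alone, and for RALFL9 in DESeq2 and in that fit. In TPM their csld5 means were 39.5% and 49.3% of col-0, against 22.7% and 32.7% in counts. They lie 1611 bases apart on chromosome 1 in the same orientation, and both overlap AT1G61565 on the other strand. LCR33, a cysteine-rich defensin-like peptide, had 10.4, 12.9 and 8.72 CPM in col-0, 3.59, 4.23 and 2.75 in csld5 and 15.5, 16.1 and 15.4 in complemented libraries, and its complemented libraries too were all above col-0.

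RTFL17, of the ROTUNDIFOLIA-like family of short peptides that limit cell proliferation in organs when overproduced, had 22.3, 20.8 and 19.9 CPM in col-0, 5.7, 5.72 and 4.67 in csld5 and 17.3, 15.1 and 21 in complemented libraries. AT5G48490, annotated as a lipid-transfer protein, had 22.8, 25 and 17.56 CPM in col-0, 6.14, 6.49 and 3.38 in csld5 and 19.5, 16.2 and 20.6 in complemented libraries. For RTFL17 and AT5G48490 the complemented and col-0 libraries overlapped. AT4G10603, of a pollen coat protein family, was weaker, with 6.08 ± 1.93 CPM in col-0, 1.67 ± 0.478 in csld5 and 6.25 ± 0.539 in complemented plants. In csld5, replicate 3 was lowest for 6 of the 6 peptides. The ranking over all genes was not set beside this count. Of the csld5 libraries, replicate 3 also had the largest part of its deviations going with exon GC and length, as described further on. What set it apart was not tested.

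The 3 glutaredoxins are small redox proteins of a plant-specific class. AT5G18600 had 15.4, 21.7 and 13.4 CPM in col-0, 5.54, 5.44 and 4.62 in csld5 and 19.6, 16.1 and 19 in complemented libraries, with complemented libraries inside the col-0 range. AT3G21460 stayed lower, with 4.13, 5.67 and 3.38 CPM in col-0, 0.475, 1.1 and 0.623 in csld5 and 2.83, 3.57 and 3.11 in complemented libraries, or 72.2% of col-0 in complemented plants. AT4G15670 had 3.001, 2.75 and 1.74 CPM in col-0, 0.158, 0.735 and 0.935 in csld5 and 1.72, 2.35 and 1.71 in complemented libraries; csld5 replicate 1 was well below the other 2. The median log2 fold change of the 3 in complemented plants against col-0 was -0.40 and none was called.

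Wall and surface genes were few. BGAL15, a beta-galactosidase of the family that trims galactose from wall polymers, had 2.74, 3.81 and 2.53 CPM in col-0, 0.158, 0.525 and 0.104 in csld5 and 3.02, 2.43 and 1.88 in complemented libraries, and rested on 30 reads over csld5. EXPA16, an expansin, which loosens walls, had 4.08, 3.95 and 3.66 CPM in col-0, 0.897, 1.18 and 1.71 in csld5 and 3.85, 4.59 and 2.85 in complemented libraries. FLA16, a fasciclin-like arabinogalactan protein, had 6.42, 5.76 and 5.35 CPM in col-0, 1.87, 1.996 and 1.79 in csld5 and 5.31, 5.5 and 5.87 in complemented libraries. FLA16 overlaps another gene and did not fall in TPM (120% of col-0 in csld5). Complemented and col-0 libraries overlapped for BGAL15, EXPA16 and FLA16. AT5G28630, a glycine-rich protein, had the lowest csld5 mean as a percentage of col-0: 1.62, 1.95 and 2.87 CPM in col-0, 0.105, 0.105 and 0.104 in csld5 and 3.5, 2.56 and 5.04 in complemented libraries. Its csld5 mean was 4.88% of col-0, from 12 reads in all, and its complemented mean 172%. AT5G19230, a GPI-anchored glycoprotein, had 3.05 ± 1.25, 0.838 ± 0.19 and 4.2 ± 0.995 CPM in the 3 genotypes in the same order.

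Of the 13 enzymes, carriers and regulators, AT5G02220, a cyclin-dependent kinase inhibitor, had 4.31, 5.14 and 2.84 CPM in col-0, 1.58, 1.18 and 1.12 in csld5 and 5.59, 5.23 and 4.68 in complemented libraries. AT3G24420, an alpha/beta-hydrolase, was the most highly counted, with 37.3, 37 and 48 CPM in col-0, 15.9, 13.1 and 11.9 in csld5 and 44.7, 51.4 and 46.3 in complemented libraries. Both returned to the range of col-0 or above it. AT1G05675, a UDP-glycosyltransferase, had 2.63 ± 0.408 CPM in col-0, 0.506 ± 0.12 in csld5 and 3.41 ± 1.84 in complemented plants, with complemented replicate 3 far above the other 2. AT3G29970, a B12D protein, rested on 11 csld5 reads and stood at 7.66% of col-0 there and 72.6% in complemented plants. The remaining members of this group included RING-type and TRAF-like proteins, a thioesterase and a proteasome inhibitor-like protein. Their csld5 means were 20.9% to 33.9% of col-0 in counts. The thioesterase gene AT1G04290 overlaps another gene and stood at 77.8% in TPM, against 30.4% in counts.

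Of the 25 proteins without a clear function, AT4G36500, AT1G19020, AT5G36925 and AT2G25735 had falls larger than the median. AT4G36500 had 40.3, 38.5 and 53 CPM in col-0, 8.04, 5.93 and 5.32 in csld5 and 36.9, 24 and 49.6 in complemented libraries. AT1G19020, whose product name in RefSeq is that of a phospholipid enzyme although it encodes only 86 residues, had 4.88, 3.81 and 8.47 CPM in col-0, 0.633, 0.735 and 0.623 in csld5 and 9.39, 5.02 and 12.9 in complemented libraries. AT5G36925 had 2.18, 1.63 and 4.05 CPM in col-0, 0.316, 0.105 and 0.208 in csld5 and 3.18, 3.36 and 4.86 in complemented libraries, from 24 csld5 reads. All 3 genes overlapped between complemented plants and col-0. AT2G25735 stood at 6.37% of col-0 in csld5, from 14 reads, and at 79.5% in complemented plants. AT1G67865 was the most highly counted gene of this group, with 81.6, 76.7 and 64.3 CPM in col-0, 22.5, 25 and 15.6 in csld5 and 80.0, 75.2 and 70.4 in complemented libraries.

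A pair of these genes share a RefSeq product name, transcription initiation factor TFIID subunit 1b-like protein, at 63 and 60 residues. AT1G49500 (chr1:18320490-18322505, - strand) had 18.4, 19.3 and 18.203 CPM in col-0, 1.79, 1.05 and 1.66 in csld5 and 7.96, 10.4 and 9.94 in complemented libraries. AT3G19030 (chr3:6563928-6564424, - strand) had 2.77, 2.48 and 2.73 CPM in col-0, 0.158, 0.21 and 0.156 in csld5 and 0.696, 0.800 and 0.985 in complemented libraries. In both, the 3 genotypes separated completely and complemented plants stood between csld5 and col-0, at 50.7% and 31.1% of the col-0 mean. Part of AT1G49500, 40% of its span, matches another site on chromosome 5 at 95.1% identity, so some of its reads may belong elsewhere.

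Complemented plants and col-0 were then set side by side over all 93 genes, as a description, since both means entered the rule. CSLD5 was the only member called higher (1.08%, against 0.948% of all genes). The 4 members called lower (4.3%, against 0.578%) were AT3G19030 (log2 fold change -1.69 ± 0.25, adjusted p = 0.0032), AT1G08733 (-1.42 ± 0.20, adjusted p = 0.0027), AT1G49500 (-0.99 ± 0.14, adjusted p = 0.0023) and THI2.2 (-0.71 ± 0.16, adjusted p = 0.043, edgeR with Benjamini-Hochberg adjustment). For AT3G19030, AT1G08733, AT1G49500 and THI2.2 the 3 complemented libraries lay below the 3 col-0 libraries. The call of THI2.2 was lost in DESeq2 (-0.71), in limma on TPM (-0.73 to -0.74), and without any 1 col-0 library (-0.61, -0.73 and -0.78 without replicates 1, 2 and 3) or without complemented replicate 1 or 2 (-0.58 and -0.61). All 3 complemented libraries exceeded all 3 of col-0 for 6 members (6.45%, against 10.2% of the 19701 genes), and all fell below for 5 (5.38%, against 9.1%). The median log2 fold change of the members was -0.01.

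**Figure D4:**
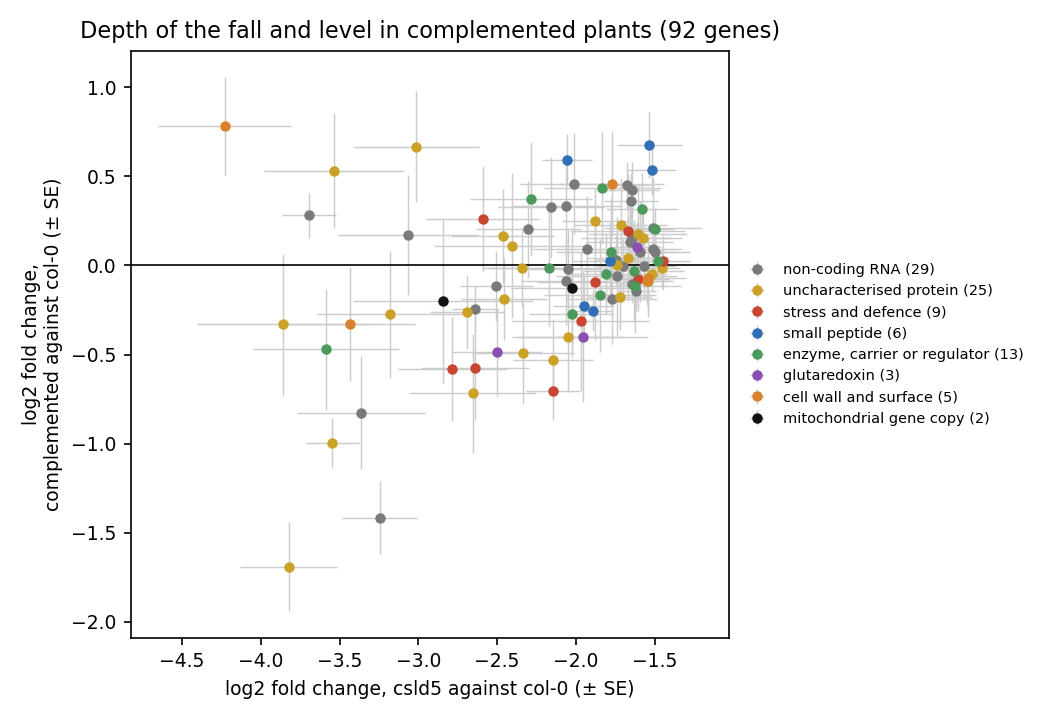
Log2 fold change of the 92 genes other than CSLD5, from col-0 to csld5 (horizontal) and from col-0 to complemented plants (vertical), with SE and colour by group; both comparisons share the col-0 libraries, and the right edge is set by the rule. AT3G19030 (-1.69), AT1G08733 (-1.42) and AT1G49500 (-0.99) are the lowest points, AT5G28630 (0.78) the highest, and most genes lie near 0 on the vertical axis.

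The 29 non-coding RNAs, 31.2% of the 93 against 2.79% of the 19701 genes, were 17 long non-coding RNAs, 6 of RefSeq's miscellaneous class, 3 other non-coding RNAs and 3 small nucleolar RNAs. The most highly counted was AT1G10682 (chr1:3544913-3545614, - strand), with 215, 182 and 151 CPM in col-0, 61.1, 53 and 40.3 in csld5 and 194, 172 and 199.8 in complemented libraries. In csld5 its replicate 3 was lowest, and complemented libraries lay within the col-0 range. AT3G01795, antisense to RCI2A, a small membrane protein gene of cold and salt responses, had 8.51, 8.22 and 8.16 CPM in col-0, 0.738, 0.551 and 0.519 in csld5 and 10.3, 11.4 and 8.98 in complemented libraries. RCI2A itself changed less, with log2 fold changes of -0.49 for the fall and 0.67 for the rise, beside -3.69 ± 0.17 and 3.98 ± 0.17 for the antisense RNA. In TPM the antisense RNA stood at 24.9% of col-0 in csld5, against 7.27% in counts. TASIR-ARF, annotated as a precursor of the small RNAs that target auxin response factor transcripts, had 1.76, 1.88 and 1.69 CPM in col-0, 0.58, 0.578 and 0.312 in csld5 and 1.62, 1.39 and 1.71 in complemented libraries.

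AT1G08733, antisense to G-TMT, a vitamin E biosynthesis gene, had 9.85, 6.61 and 7.54 CPM in col-0, 1.002, 0.683 and 0.701 in csld5 and 3.36, 2.35 and 3.35 in complemented libraries. G-TMT fell by 1.41 in csld5 and was not called between complemented plants and csld5 (-0.14), while AT1G08733 rose there by 1.83 in counts. In TPM AT1G08733 did not rise, with means of 240, 97.4 and 82.9 TPM in col-0, csld5 and complemented plants. AT2G05812 overlaps AT2G05810, an ARM repeat gene that fell by 2.81 and rose by 2.73, beside -1.93 and 2.02 for AT2G05812. Over the 14 tested non-members that overlap a member on the opposite strand, 4 were lower and 2 higher in csld5 (median -0.15). Over all 20 overlapping genes 5 were lower and 3 higher, beside 20.4% and 21.1% of all genes tested. From csld5 to complemented plants 3 of the 14 were lower and 3 higher (median 0.20). Of the 20, 4 were lower and 5 higher there, beside 21.1% and 19.8% of all genes tested.

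Small nucleolar RNAs with a C box, TGATGA, and a D box, CTGA, typically guide ribose methylation of RNA. The 3 small nucleolar RNAs among the members hold both sets of letters, but their annotation names no target. They are shown because they are the shortest members, with both boxes in capitals, as annotated on TAIR10.1: AT3G08165 at chr3:18893230-18893310, - strand, U60.1F at chr5:21295736-21295809, + strand and AT4G08175 at chr4:14469192-14469284, - strand.
AT3G08165: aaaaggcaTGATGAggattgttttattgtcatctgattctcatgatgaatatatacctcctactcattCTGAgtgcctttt
U60.1F: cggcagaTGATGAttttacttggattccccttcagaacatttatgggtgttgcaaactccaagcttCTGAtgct
AT4G08175: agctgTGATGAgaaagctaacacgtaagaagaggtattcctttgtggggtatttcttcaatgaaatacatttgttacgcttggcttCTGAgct

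AT3G08165 had 7.29, 7.11 and 6.39 CPM in col-0, 2.4, 2.47 and 2.08 in csld5 and 7.58, 7.5 and 7.03 in complemented libraries, an even fall to 33.4%. U60.1F had 4.22, 3.19 and 3.43 CPM in col-0, 1.19, 1.16 and 1.25 in csld5 and 3.66, 3.81 and 4.2 in complemented libraries, and AT4G08175 had 1.69, 1.84 and 2.11 CPM in col-0, 0.633, 0.446 and 0.597 in csld5 and 2.3, 2.4 and 1.55 in complemented libraries. Complemented and col-0 libraries overlapped for each, and all csld5 libraries were lower. U60.1F lies within FIB1, the fibrillarin gene, which had a log2 fold change of 0.20 in csld5 and -0.30 in complemented plants against csld5, the opposite signs. AT4G08175 lies within AT4G29410, a ribosomal protein L28e gene, at -0.17 and 0.19.

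Some members cannot be assigned with certainty. AT2G07751, which resembles nad3, and AT2G07675, which resembles rps12, lie 45 bases apart within a copy of mitochondrial DNA on chromosome 2, and both are 100% identical to the mitochondrial sequence. Their col-0 means were 1.68 and 1.45 CPM, and mitochondrial genes together took 0.0239% to 0.0278% of reads in col-0, against 0.0405% to 0.0467% in csld5 and 0.031% to 0.0428% after complementation, a share that was higher in csld5, where these copies were lower. AT1G18010, a carrier of the major facilitator family, is 100% identical to AT1G18000, which had 208, 58 and 161 reads in the 3 genotypes. AT5G28460, a pentatricopeptide repeat gene, matches AT3G61520 at 99.03%, and AT3G09415, a long non-coding RNA, matches another site on chromosome 3 at 96.2% over 91.3% of its span. The VQ-motif gene AT1G17147 matches a site on chromosome 2 at 98.5% identity over 43% of its span. For AT4G13575, 46.1% of the span matches other sites, the longest match being at 95.1%.

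The genes shared traits that the rule did not use. Their median exon length was 865 bases, against 1778 for the 19701 genes, and their median GC content was 35.2%, against 41.1%. A single exon was annotated for 54.8%, against 13.8%, and the median protein had 110.5 residues, against 390. Proteins of 120 residues or fewer made up 36 of the 64 coding members (56.2%), against 5.98%. Read the other way, 6.9% of genes with under 300 bases of exon met the rule (8 of 116), and 0.141% of those with 2000 bases or more. By GC content the share ran from 20.6% of genes under 32% GC (14 of 68) to 0.0869% of those between 40% and 44%. Overlap with a gene on the opposite strand was about as common as elsewhere, 28.0% against 26.3%.

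**Figure D5:**
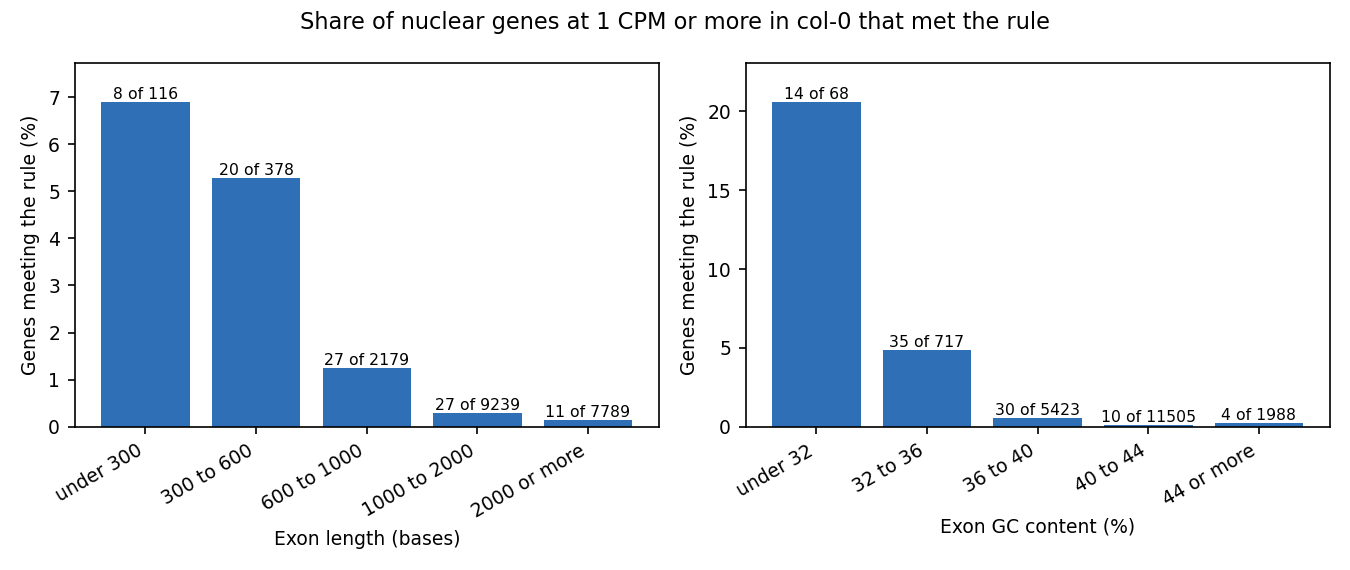
Share in percent of nuclear genes with at least 1 CPM in wild type that met the rule, by exon length in bases (left) and exon GC content in percent (right), with the counts above the bars. The share is highest in the shortest class (8 of 116, 6.9%) and in the class of lowest GC (14 of 68, 20.6%).

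Gene length and GC content also went with the change over all genes. Over the 116 genes under 300 bases with at least 1 CPM in col-0 the median log2 fold change in csld5 against col-0 was -0.66, and -0.16 after a smooth correction for exon GC and length in each library. GC and length accounted for 2.54% to 33.9% of the variance of a library's deviations, most in csld5 replicate 3, which was also the lowest csld5 library for 17 of the 25 uncharacterised proteins and 15 of the 29 non-coding RNAs. With the correction the members' median moved from -1.89 to -1.62 for the fall in csld5 and from 1.90 to 1.43 for the rise after complementation. Called lower remained 91 of the 93, without AT3G03325 and AT4G02905, and called higher 86, without these and AT4G08555, AT4G15670, AT3G09415, TASIR-ARF and AT2G07875. The corrected fold changes reached 1.5 in both directions for 35 genes, against 84 before it.

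The groups differed in how much of the fall the correction removed. Small peptides went from a median of -1.83 to -1.14 and non-coding RNAs from -1.74 to -1.28, while stress and defence genes went from -1.97 to -1.77 and wall genes from -1.77 to -1.81. Among single genes CSLD5 went from -2.26 to -2.63 and BGAL15 from -3.44 to -3.54. ERF11 stood at -2.46 and CML38 at -2.18 after it, NHL3 at -1.53, RALFL8 at -1.47, RALFL9 at -0.82, LCR33 at -0.69 and AT1G10682 at -1.05. The part of library composition in the 93 genes' values was not otherwise tested.

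The deposited TPM values give another view of the same libraries, and there 53 of the 93 genes met the rule. Of the 60 members that overlap no other gene, 0 stood at 75% or more of the col-0 TPM in csld5 (5.51% to 38%, median 27.1%). Of the 33 that overlap a gene, 10 did, with a range of 7.9% to 126%. AT3G03265, antisense to DELTA-TIP, a vacuolar water channel gene, was at 15.2% of col-0 in counts but at 126% in TPM (492, 621 and 434 TPM in the 3 genotypes), while DELTA-TIP changed by 0.23 on the log2 scale. FLA16 was at 32.3% in counts and 120% in TPM, AT1G76878 at 30.8% and 108%, and AT2G05812 at 24.6% and 112%. In all, the csld5 percentage in TPM was over 1.5 times that in counts for 21 members, each overlapping another gene, and 5 members, also overlapping, were not higher in complemented plants than in csld5 by mean TPM. For the 10 overlapping genes the csld5 TPM was 77.8% to 126% of col-0, so the fall seen in the counts was smaller or absent in TPM. The strand setting behind either table is not given, and the reason for the difference was not tested. The 9 stress genes, the glutaredoxins and the small peptides were not among the 10.

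Members were found on all 5 chromosomes, with 39, 10, 16, 10 and 18 on chromosomes 1 to 5. Within 20000 bases of each other lay 5 pairs. Besides RALFL8 with RALFL9 and the mitochondrial copies, these were AT1G67860 with AT1G67865 (636 bases apart), AT1G65486 with AT1G65490 (4121 bases) and THI2.2 with AT5G36925 (2612 bases), each pair in 1 orientation. The last pair differed in complemented plants, with THI2.2 at 61.7% and AT5G36925 at 145% of col-0.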

How the data were processed

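Raw counts per gene and, for the same libraries, TPM (abundance scaled by gene length and by library) were deposited by the authors. Trimmomatic 0.39, HISAT2 2.2.1, featureCounts 2.0.6 and TAIR10 are named per the submitters' processing notes; settings, strand, annotation and the tool behind TPM have no source here. In the deposited counts, even numbers made up 74.9% to 81.2% of values from 2 to 21, so a count is not known to be a single fragment, and col-0 replicate 1 listed 0 genes without a read against 932 to 1540 in the other 8 libraries. Groups and replicate numbers came from the sample titles.

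CPM is the count over the column total, and errors of levels are SD over 3 libraries. Fold changes, SE and adjusted p-values are from edgeR 4.0.16 in R 4.3.3 (default expression filter, TMM factors, quasi-likelihood F test on 1 fit of 9 libraries with genotype alone, Benjamini-Hochberg over 22671 genes). The GC and length correction was a smooth curve per library from mgcv 1.9.3, used as an offset. DESeq2 1.42.0 and limma 3.58.1 were alternatives. Of these steps only the edgeR fit was tested on simulated counts, for csld5 against col-0 and with the same relative spread for every gene. Gene models, positions and upstream windows of 250 bases came from the RefSeq annotation of TAIR10.1, and copies of members were sought at 95% identity or more over at least 100 bases.

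The members, 9 gene lists and 5 marker lists were chosen with earlier results of these data known. Symbols that matched no RefSeq name were left out. Genes named are CSLD5, the members with the highest col-0 level, the lowest csld5 to col-0 ratio, the highest complemented to csld5 ratio or the largest change between complemented plants and col-0, the members in a list, those at a threshold and those next to each other; other members were named by role after their values were seen. Replicate numbers are shared between genotypes, but no label says that they pair the libraries. The deviations of same-numbered libraries correlated at -0.11 to 0.20, and those of differently numbered libraries at -0.24 to 0.18. With so few libraries these values cannot settle whether they were paired.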

Additional observations from a re-analysis of the deposited data

How the results depend on the processing

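The number of genes meeting the rule depended on its settings: 26 with 1 CPM added, 425 at log2 thresholds of 1, 26 at thresholds of 2, and 37 with a col-0 minimum of 5 CPM. It was 114 with 0.01 CPM added, 70 on TMM-scaled CPM, 119 on TPM (53 shared) and 128 with no minimum. Leaving out 1 library in turn gave 83 to 120 genes, and 49 of the 93 met it in all 9 such sets. Over all alternatives the members called lower in csld5 numbered 85 to 93 and those called higher in complemented plants 86 to 93, with the lowest counts in limma on TPM; the GC and length correction gave 91 and 86. With library totals 6394 of all genes were lower in csld5 and 6422 higher in complemented plants.

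Between complemented plants and col-0, members called higher were 1, but 3 with DESeq2, 4 with the replicate block and 5 in a fit of these genotypes alone (1 to 2 without single libraries); RALFL8, RALFL9, AT1G08943 and AT5G00705 were among those added, and the cause was not tested. Members called lower were 4 (3 to 5). Of all genes, 215 were higher: 432 with DESeq2, 117 and 129 in limma on TPM with 1 and 0.1 added, 60 without a filter, and 70 to 258 without single libraries. Lower were 131: 236 with DESeq2, 77 in limma without a filter, and 65 to 157 without single libraries. Of the members named by the rule for names, none reversed a call in this comparison, and THI2.2 alone lost one. With the replicate number as a block, 93 members were lower in csld5 and 93 higher in complemented plants, as without it. Low counts limit the genes with fewer than 30 reads in csld5, and fold sizes of short or AT-rich genes depend on the GC and length correction.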
